A study of Mus musculus with 20 samples.

Results

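The cytosolic ribosomal protein genes are described here in the livers of Cse-/- and Cse+/- mice that were shifted to diets lacking 1 amino acid. The members were every row of the count table whose gene symbol is Rpl or Rps followed by a number and at most a single letter a, l or x, together with Rplp0, Rplp1, Rplp2 and Rpsa. Rows named as pseudogenes (with -ps in the symbol) were left out. The rule found 82 of the 46078 genes of the table, 50 of the large and 32 of the small ribosomal subunit, spread over 19 chromosomes. Enough reads for a test were present for 78 members, 46 large and 32 small. The other members were Rpl3l, Rpl10l and Rpl39l, which are related copies of ribosomal protein genes, and Rpl23a. The rule also took Rps4l and Rpl6l, which the GRCm38 annotation lists as a transcribed processed pseudogene and a processed pseudogene, whereas it lists the other 80 as protein coding.

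A ribosome consists of a large and a small subunit, each built from ribosomal RNA and a set of ribosomal proteins. Most of these proteins are needed in equal numbers, so that cells make the proteins of both subunits together. The mRNAs of ribosomal proteins begin with a C followed by a run of pyrimidines, the 5' terminal oligopyrimidine (TOP) tract. Through this tract the kinase mTORC1, which senses amino acids, and the RNA-binding protein LARP1 control how much the mRNAs are translated and how long they last. The liver devotes much of its RNA and protein synthesis to ribosomes and adjusts both to the supply of food.

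All livers came from male mice at least 9 weeks old on a 129/C57BL/6 background, which received the control diet for 3 days and then their own diet for 2 days, under calorie restriction throughout and in all groups. Cse (Cth in the count table) encodes cystathionine gamma-lyase, which makes cysteine, so that Cse-/- mice need cysteine in the food. Of the 6 groups, 3 were Cse+/- mice that received the control diet (n = 2), a cysteine-free (no-Cys) diet (n = 4) or a tryptophan-free (no-Trp) diet (n = 3). The other 3 were Cse-/- mice that received no-Cys food (n = 4), no-Trp food (n = 3) or no-Trp food together with L-buthionine sulfoximine (BSO, n = 4), an inhibitor of glutathione synthesis. The sample labels call the control genotype WT, whereas the study's list of mice calls it HET, and Cse+/- is used here. The Cse deletion is in the germline, so that other tissues lack the enzyme as well, and no Cse-/- livers on the control diet and no Cse+/- livers with BSO are among the groups.

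The libraries held between 11785740 and 57986121 counts on genes, and livers of 1 group differed from each other beyond sampling noise. Libraries are called by their column names (av01 to av22). Cth was between 88.4 and 332 CPM (counts relative to the TMM-scaled library size) in the Cse+/- livers and between 6.37 and 14.4 CPM in the Cse-/- livers, with no overlap. The hepatocyte marker list summed to between 50740 and 125000 CPM in all livers. In the Cse-/- no-Cys livers, 4 of 8 hepatocyte markers and 5 of 5 erythroid markers tested were lower and 1 hepatocyte marker was higher than in the Cse+/- no-Cys livers, and the erythroid list summed to between 69.1 and 114 CPM against 201 to 407 CPM. The lymphocyte list summed to between 7.57 and 8.80 CPM against 10.5 to 14.9 CPM, the macrophage list to between 251 and 306 CPM against 297 to 372 CPM, and pancreas genes to at most 2.05 CPM in any liver. Of the 6 endothelial markers 1 was higher, and 2 of 6 stellate, 1 of 4 cholangiocyte and 1 of 3 cell cycle markers were lower. The part of these cell types in the results below was not tested, and in whole livers fewer cells of a type and less RNA per cell cannot be told apart.

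Start sites of a few members are shown before the values, because the TOP tract lies at the start of the mRNA. RefSeq start sites (GRCm38.p6) were found for 60 of the 82 members, with 72 starts, among 32851 starts of all genes. A C at the annotated start followed by 4 more pyrimidines was present at 18.1% of the member starts and 2.51% of all starts, so that most annotated member starts did not carry it. The letters CTTTC, a frequent core of these tracts, occurred on the transcribed strand between 20 bases before and 30 bases after the start at 30.6% of member starts and 6.57% of all starts. On the opposite strand of the same window CTTTC occurred at 6.94% and 6.30%. Within 300 bases around the start and on either strand, CCGGAAG, the core of sites of ETS factors, occurred at 36.1% of member starts and 8.86% of all starts, and AAGATGG, letters found in YY1 sites, at 15.3% and 6.34%. Matches of different motifs may share bases. The starts below were taken from those with CTTTC and are those of 4 members that rose in the Cse-/- no-Cys livers (Rpl12, Rps26, Rpl18 and Rpl13a) and of 3 that did not pass the test there (Rplp2, Rpl38 and Rpl7a), each 50 bases long with the annotated start after the 20th base and with CTTTC in capitals.
Rpl12, chr2:32961692-32961741, plus strand: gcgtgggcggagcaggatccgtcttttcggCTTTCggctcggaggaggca
Rps26, chr10:128626477-128626526, minus strand: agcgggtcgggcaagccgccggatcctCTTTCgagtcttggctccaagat
Rpl18, chr7:45718051-45718100, plus strand: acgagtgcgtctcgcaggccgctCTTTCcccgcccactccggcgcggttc
Rpl13a, chr7:45128716-45128765, minus strand: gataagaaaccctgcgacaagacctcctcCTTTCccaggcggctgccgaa
Rplp2, chr7:141447631-141447680, plus strand: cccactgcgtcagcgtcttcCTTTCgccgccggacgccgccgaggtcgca
Rpl38, chr11:114668560-114668609, plus strand: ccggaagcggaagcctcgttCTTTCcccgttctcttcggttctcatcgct
Rpl7a, chr2:26910787-26910836, plus strand: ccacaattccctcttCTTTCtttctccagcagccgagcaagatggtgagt

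Of the starts shown, CTTTC began exactly at the annotated start in Rplp2 and Rpl38, which did not pass the test. It lay downstream of the start in the 4 members that rose, whose annotated starts are a G, and before the start in Rpl7a. Position did not separate the members, since of others that rose Rpl4, Rpl5, Rps15a and Rpl35 had CTTTC before the annotated start. Of the 57 tested members with a start site, 21 had CTTTC in this window and 36 did not, and 10 of each rose in the Cse-/- no-Cys livers against the Cse+/- no-Cys livers. Their median log2 fold changes were 0.34 with the motif and 0.23 without it, which is a description of these members and was not tested.

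Many members have processed copies elsewhere in the genome or overlap another gene, and reads that match both can be lost or counted on either. Of the 82 members, 79 shared at least some 61-base words, the length of a read, with another annotated gene, with a median of 21.5% of their words and a highest value of 81.1% in Rpl35, of whose exon bases 66.2% are also covered by Wdr38 and Arpc5l and whose named pseudogene had 0 counts. The table held 266 named pseudogenes of 58 members. Their counts came to 98.6% of the sum of Rpl23a and its pseudogenes, 74.3% for Rpl17, 40.6% for Rpl19, 33.6% for Rpl14, 29.4% for Rpl38, 25.3% for Rps6, 20.6% for Rpl21 and 20.2% for Rpl3, members that were picked after these shares were seen. Rpl23a, a protein near the exit tunnel of the large subunit, was listed at no more than 0.487 CPM in any liver. Of the 408 words of its coding sequence, 85.0% also occur in Rpl23a-ps3, starting with coding bases 1 to 61, and 62.3% of its exon bases are also covered by Tlcd1 and Snord42b.
Rpl23a: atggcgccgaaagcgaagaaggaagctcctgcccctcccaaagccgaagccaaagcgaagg
Levels of members with such copies are therefore uncertain. Adding the counts of the named pseudogenes to each member changed the number of members that rose on the no-Cys diet from 27 to 28, of which 27 were the same genes. Genes with other names that share words with members, such as Gm10275 with Rpl12 and Gm13436 with Rpl18, were not added. This check therefore does not cover all shared reads.

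Among the members, the 5 highest levels per kilobase of merged exon, as means of all 20 libraries, were 1134 CPM per kb for Rplp1 (an acidic protein of the ribosomal stalk), 554 for Rps15 (a protein of the head of the small subunit), 420 for Rplp0 (the base of the stalk), 408 for Rpl4 (which lines the exit tunnel) and 405 for Rpl36. Per kilobase of the principal transcript, a length chosen after the data were seen, the values were 1134 CPM per kb for Rplp1, 698 for Rps15, 513 for Rplp0, 532 for Rpl4 and 405 for Rpl36. The order changed with this length, since, among others and named after their values were seen, Rpl41 (710 CPM per kb), Rpl32 (679), Rps9 (656), Rps18 (650.0), Rpl13a (610) and Rps14 (608) then stood above Rpl4, Rplp0 and Rpl36. Rplp1 shared 54.0% and Rpl36 75.9% of its words with other genes. Of the 78 tested members, the mean level per member ranged from 0.722 to 819 CPM, with a median of 208 CPM. The lowest was Rpl24, named after its value was seen. It shared 51.0% of its words with other genes, and 47.0% of its exon bases are also covered by Gm28037, so that its level is uncertain.

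The members together took between 1.52% and 2.53% of all counts on genes. In the Cse-/- no-Cys livers the shares were 2.11%, 2.53%, 2.42% and 1.64% (av05 to av08). In the Cse+/- no-Cys livers they were 1.52%, 1.55%, 1.58% and 1.72%. So 3 of the 4 Cse-/- no-Cys livers lay above all 4 Cse+/- no-Cys livers, and av08 lay among them. The hepatocyte markers of av08 also summed to 80300 CPM, against 50740 to 55650 CPM in av05 to av07, and their part in its low share was not tested. The Cse+/- no-Trp livers had 1.80%, 1.75% and 2.25%, the Cse-/- no-Trp livers 1.87%, 1.67% and 1.67%, those with BSO 1.86%, 1.77%, 1.75% and 1.68%, and the Cse+/- control livers 1.61% and 1.67%. The library av20 thus stood above the other no-Trp livers. The 10 most abundant genes took 12.5% to 15.1% of counts in the Cse-/- no-Cys livers and 16.8% to 18.7% in the Cse+/- no-Cys livers. Without those genes the shares of the members were 1.94% to 2.92% and 1.86% to 2.11%.

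**Figure D1:**
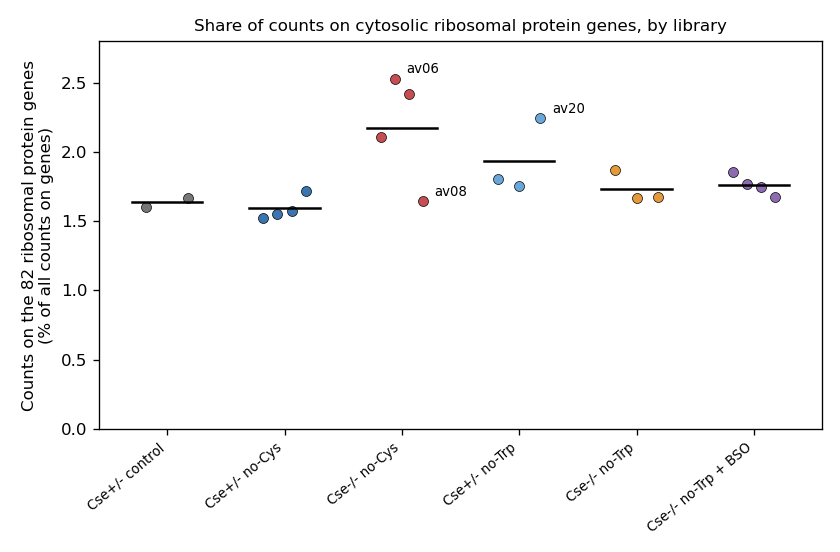
Percentage of all counts on genes that fell on the 82 ribosomal protein genes (y axis), for each of 20 livers (points) in 6 groups (x axis), with the mean of each group as a line. Library av08 lies at 1.64%, below the other Cse-/- no-Cys livers at 2.11% to 2.53%, and av20 at 2.25% lies above the other no-Trp livers.

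Within groups, most members were high or low in the same livers. In the Cse-/- no-Cys group, av06 was the highest library for 65 of the 78 tested members and av08 the lowest for 71, against 22.5% and 28.9% of all genes tested. In the Cse+/- no-Trp group av20 was the highest for 67 of 78, against 34.4% of all genes. In the Cse+/- no-Cys group av04 was the highest for 58 and av02 the lowest for 50, against 25.9% and 21.4% of all genes. The libraries av09 (highest for 64 in the BSO group) and av14 (highest for 56 in the Cse-/- no-Trp group) also stood above their groups, and av22 was above av21 for 73 members in the control group, against 28.2%, 36.2% and 50.9% of all genes. Genes with merged exons under 1 kb moved with the members in some of these livers. Their median log2 difference from the control mean was 0.10 in av04 against -0.19 to -0.12 in the rest of its group, 0.09 in av14 against -0.16 and -0.12, and 0.07 in av20 against 0.02 and -0.04. It was lowest of its group in av02 (-0.19), whereas av06 (-0.04) lay below av07 (0.03), av08 (-0.17) was level with av05 (-0.17), and av09 (-0.09) was not the highest of its group. The part of gene length or RNA quality in these differences was not tested. Over the 6 group means, the Cse-/- no-Cys group was the highest for 39 members and the Cse+/- no-Trp group for 36, against 23.9% and 17.98% of all genes, whereas the Cse+/- no-Cys group was the lowest for 41 and the Cse-/- no-Trp group for 18, against 16.9% and 9.85% of all genes.

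**Figure D2:**
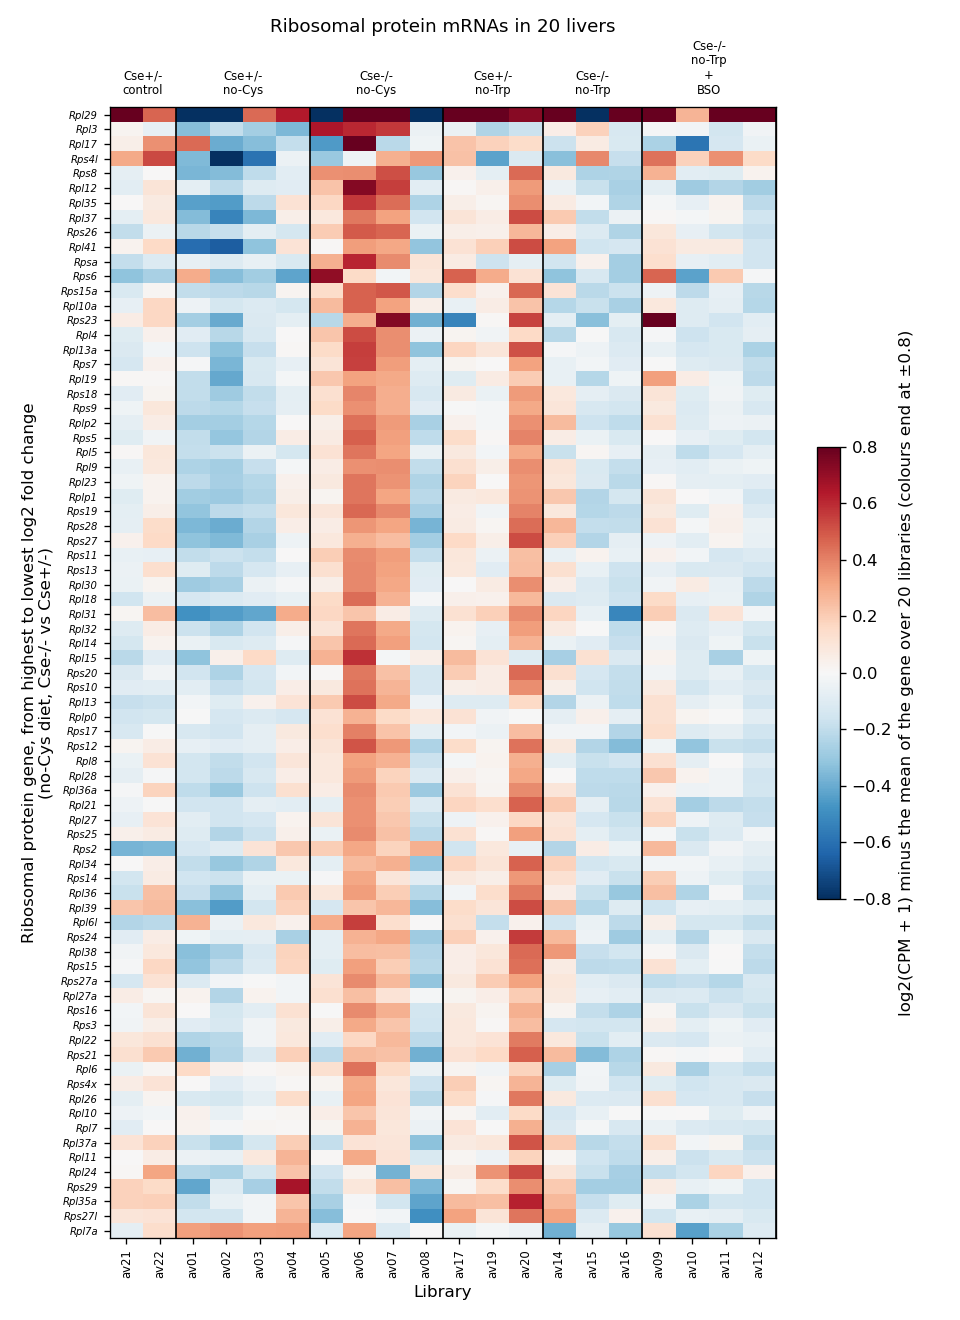
Colour map of 77 ribosomal protein genes (rows, from the highest to the lowest log2 fold change between Cse-/- and Cse+/- on the no-Cys diet) in 20 livers (columns, by group), with colour showing log2(CPM + 1) minus the mean of that gene over all libraries and ending at 0.8 in each direction. Most rows are high together in av06, av07 and av20 and low together in av02, and Rpl29 at the top changes by library rather than by group.

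The first comparison asked how the livers of mice that cannot make cysteine differ from those of Cse+/- mice on the same no-Cys diet. Of the 78 members tested, 27 rose in the Cse-/- livers and 0 fell (edgeR quasi-likelihood test, adjusted p under 0.05, all 20 libraries in the fit). Over all 14759 genes, 11.6% rose and 12.2% fell. The members' log2 fold changes had a median of 0.29, against -0.01 for all genes, and 73 of 78 were positive. Transcripts of the mitochondrial genome took 3.62% to 3.98% of counts in the Cse-/- livers and 5.17% to 5.84% in the Cse+/- livers, and their part was not tested. By subunit, 16 of 46 large (median 0.27) and 11 of 32 small members (median 0.31) rose. With an unadjusted p under 0.05 there were 43 members with higher and 1 with lower values, against 17.8% and 18.4% of all genes, and DESeq2 called 31 higher and 0 lower. The changes were small. On simulated counts for this comparison the test recovered 10.3% of genes changed 1.3-fold and 87.9% of those changed 2-fold. Far fewer genes were changed in the simulation than passed the test here, which makes the adjusted p stricter. These shares therefore do not give the power for the members. Individual livers decided the count, since it was 5 without av06, 8 without av02, 11 without av07, 16 without av03, 17 without av01 and 44 without av08, and 9 when only both no-Cys groups were fitted. The median stayed between 0.18 and 0.37 in these fits, being lowest without av06 and highest without av08.

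Of these 27 members, 6 had no overlap between the livers of the groups (Rpl3, Rpsa, Rps26, Rpl10a, Rplp0 and Rpl18), and 1 member that did not pass the test, Rpl7a, lay apart in the other direction. Of all genes, 12% lay apart with higher and 11.2% with lower values in the Cse-/- livers, so that 6 of 78 is no larger a share than among all genes. Rpl3, a large subunit protein that reaches towards the peptidyl transferase centre, stood at 363, 353, 344 and 225 CPM in the Cse-/- no-Cys livers and at 183, 203, 193 and 180 CPM in the Cse+/- no-Cys livers. All Cse-/- livers were above all Cse+/- livers, with av08 well below the other 3. The log2 fold change of Rpl3 was 0.76 ± 0.12 (SE, n = 4 and 4, adjusted p = 1.57e-04, edgeR), and it kept its call in 18 of 18 other settings. Rpsa, the small subunit protein that is also known as the laminin receptor, stood at 404, 507, 432 and 357 CPM against 318, 309, 318 and 305 CPM. The Cse+/- livers lay close together and the Cse-/- livers were spread out above them. Its log2 fold change was 0.44 ± 0.10 (adjusted p = 0.00389).

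Rps26, a protein of the mRNA exit channel, stood at 183, 223, 220 and 153 CPM in the Cse-/- no-Cys livers and at 136, 139, 150 and 144 CPM in the Cse+/- no-Cys livers, so that the groups came close at av08 without an overlap. Its log2 fold change was 0.45 ± 0.11 (adjusted p = 0.00564, edgeR). Rpl10a, a protein of the L1 stalk, stood at 261, 304, 274 and 226 CPM against 213, 199, 203 and 198 CPM, with a log2 fold change of 0.39 ± 0.10 (adjusted p = 0.00634). Rplp0, which carries the P1 and P2 proteins on the stalk, stood at 751, 841, 773 and 737 CPM against 692, 633, 643 and 633 CPM. This was the smallest of the 6 changes, with a log2 fold change of 0.25 ± 0.08 (adjusted p = 0.0209). Rpl18 stood at 298, 365, 325 and 266 CPM against 244, 248, 252 and 257 CPM, with a log2 fold change of 0.32 ± 0.10 (adjusted p = 0.0224). Rpl18 and Rplp0 lost the call without av06 or without av02, whereas Rpsa, Rps26 and Rpl10a, like Rpl12, kept it in 18 of 18 other settings. Rpl12, a protein of the stalk base, stood at 235, 334, 296 and 190 CPM against 190, 173, 187 and 189 CPM, with av08 inside the range of the Cse+/- livers. Its log2 fold change was 0.51 ± 0.13 (adjusted p = 0.00807).

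**Figure D3:**
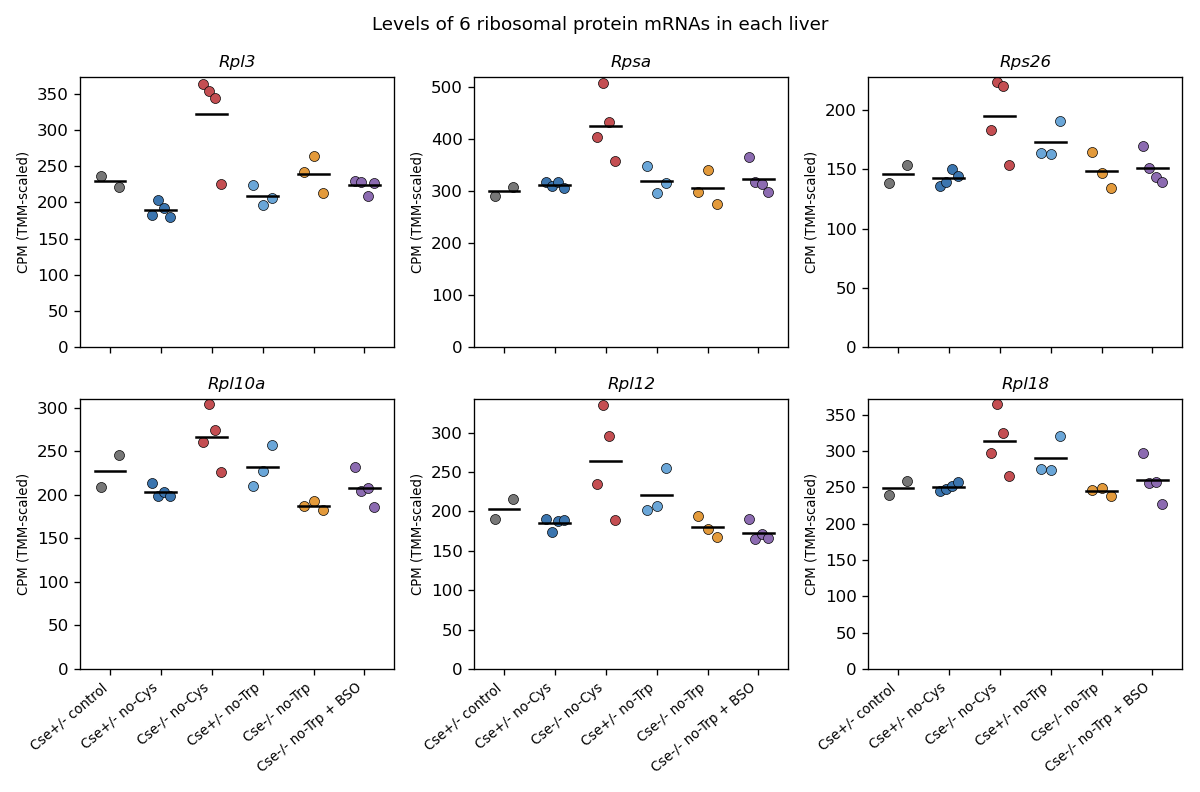
CPM (TMM-scaled, y axes from 0) of Rpl3, Rpsa, Rps26, Rpl10a, Rpl12 and Rpl18 in each liver (points) of the 6 groups (x axes), with the mean of each group as a line. For all 6 the mean was highest in the Cse-/- no-Cys livers, and av08 was the lowest liver of that group.

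Members with known roles were followed one by one. Of the stalk proteins Rplp0 passed the test, and the acidic proteins Rplp1 (log2 fold change 0.34 ± 0.13, adjusted p = 0.0657, edgeR) and Rplp2 (0.36 ± 0.14, adjusted p = 0.0688) had values of similar size that did not pass it. Rplp1 stood at 567.7, 755, 698 and 482 CPM against 461, 458, 473 and 578 CPM, so that the groups overlapped. Rpl5 and Rpl11 join 5S rRNA in a particle that can also bind the p53 regulator Mdm2. Rpl5 rose (0.35 ± 0.10, adjusted p = 0.0136), with 225, 280 and 258 CPM in av05 to av07 against 182, 184, 201 and 188 CPM, and with av08 just inside the range of the Cse+/- livers. Rpl11 had a log2 fold change of 0.02 ± 0.10 (adjusted p = 0.934), with 279, 342, 298 and 253 CPM against 268, 265, 293 and 333 CPM, so that the livers of both groups covered the same range. The difference between Rpl5 and Rpl11 was not tested.

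Rps6, the substrate of S6 kinase, varied between livers of one group, with 236, 160, 142 and 154 CPM in the Cse-/- no-Cys livers and 177, 113, 119 and 107 CPM in the Cse+/- no-Cys livers. Its log2 fold change of 0.42 ± 0.18 did not pass the test (adjusted p = 0.102, edgeR). Rpl13a, which is also known as a translational silencer in inflammation, rose (0.39 ± 0.14, adjusted p = 0.0475), with 701, 924, 815 and 504 CPM against 560, 501, 555 and 634 CPM and an overlap at av08. The other members named for their roles had smaller values that did not pass the test. They were 0.09 for Rpl10 (a late-joining protein of the large subunit, adjusted p = 0.422), 0.18 for Rpl38 (known for the translation of Hox mRNAs, adjusted p = 0.374), 0.21 for Rps2 (adjusted p = 0.133), 0.15 for Rps3 (a protein of the mRNA entry channel, adjusted p = 0.245) and 0.17 for Rps27a (made as a fusion with ubiquitin, adjusted p = 0.293).

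Near copies of ribosomal protein genes were compared with their partners. Rps27l is a target of p53 whose product is closely related to that of Rps27. Both coding sequences have 252 bases, of which 76.2% are identical in position, and the first 90 bases differ at 24 positions, shown in capitals because they let most reads be assigned to one gene or the other.
Rps27: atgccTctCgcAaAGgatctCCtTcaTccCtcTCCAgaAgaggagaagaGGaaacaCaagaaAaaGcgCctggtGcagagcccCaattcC
Rps27l: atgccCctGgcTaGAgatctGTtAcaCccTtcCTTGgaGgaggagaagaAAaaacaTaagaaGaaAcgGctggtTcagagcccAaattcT
Rps27l shared 8.57% of its words with other genes and Rps27 23.8%. On the no-Cys diet Rps27 stood at 201, 231, 225 and 157 CPM in the Cse-/- livers against 152, 148, 158 and 185 CPM in the Cse+/- livers, with a log2 fold change of 0.34 ± 0.13 (adjusted p = 0.0559, edgeR). Rps27l stood at 137, 175, 171 and 124 CPM against 157, 158, 171 and 210 CPM, with a log2 fold change of -0.20 ± 0.12 (adjusted p = 0.261). The values of the pair thus pointed in opposite directions, neither passed the test, and their difference was not tested.

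The other copies were at low levels or did not pass the test. Rpl10l had no count in any library, against 354 to 452 CPM for Rpl10. Rpl39l reached at most 0.424 CPM and Rpl3l at most 0.351 CPM, against 74.4 to 147 CPM for Rpl39 and 180 to 363 CPM for Rpl3. Rpl39l and Rpl3l are known from testis and muscle. Rpl22l1, a paralog of Rpl22, stood between 20.5 and 41.1 CPM over all livers, Rpl7l1 between 58.3 and 77.7 CPM and Rpl36al between 137 and 196 CPM. The log2 fold changes of their partners on the no-Cys diet were 0.14 for Rpl22, 0.08 for Rpl7 and 0.24 for Rpl36a, none of which passed the test. Rps4l, on the border of the threshold, rose by 0.56 ± 0.20 (adjusted p = 0.0498), with 13.9, 16.8, 21.2 and 22.2 CPM against 13.2, 9.31, 11.1 and 16.6 CPM. Its partner Rps4x had a value of 0.10 (adjusted p = 0.449). Just outside the threshold was Rpl7a at -0.31 ± 0.11 (adjusted p = 0.0558), with 44.97, 60.6, 44.9 and 48.6 CPM against 61.2, 62.4, 61.2 and 61.4 CPM. The Cse+/- livers lay within a narrow range just above the highest Cse-/- liver, and without av06 Rpl7a was called lower. Rpl7a shared 35.0% of its words with a total of 103 other genes.

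The second comparison set Cse-/- livers without cysteine against Cse-/- livers without tryptophan. Of the 78 members 9 rose in the no-Cys livers and 0 fell, against 5.05% and 5.35% of all genes (edgeR, adjusted p under 0.05). The median log2 fold change of the members was 0.23, against -0.01 for all genes, and 75 of 78 were positive. Beside this, 4 of 8 hepatocyte and 3 of 5 erythroid markers were lower in the no-Cys livers, and their part was not tested. DESeq2 called 14 higher and 0 lower, and an unadjusted p under 0.05 was reached by 31 with higher and 1 with lower values, against 12.9% and 13.6% of all genes in each direction. The same Cse-/- no-Cys livers enter the first comparison, and 7 of these 9 members are among the 27 that rose there (Rpl3, Rpl4, Rpl10a, Rpl12, Rpl18, Rps26 and Rpsa). The count was 4 without av05, 2 without av06, 3 without av07, 29 without av08, 3 without av14 and 1 without av16, and 0 when only these 2 groups were fitted.

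Groups lay apart for 8 members with higher values in the no-Cys livers and for 0 with lower values, against 10.2% and 9.83% of all genes. Rpl10a had the smallest p-value of the members, with 261, 304, 274 and 226 CPM in the no-Cys livers and 187, 193 and 182 CPM in the no-Trp livers. The groups did not overlap, and the log2 fold change of Rpl10a was 0.51 ± 0.11 (n = 4 and 3, adjusted p = 0.00563, edgeR). Rpsa stood at 404, 507, 432 and 357 CPM against 299, 341 and 275 CPM (0.48 ± 0.11, adjusted p = 0.0107). Rpl13, a large subunit protein, stood at 281, 350, 300 and 236 CPM against 206, 235 and 211 CPM (0.42 ± 0.12, adjusted p = 0.0247), so that av08 was just above the highest no-Trp liver. Rpl18 differed by 0.36 ± 0.11 (adjusted p = 0.0387). Of the members near the threshold, Rpl6l was called at 0.45 ± 0.14 (adjusted p = 0.0427), with 11.98, 14.5, 10.6 and 9.59 CPM against 8.46, 9.16 and 8.12 CPM, and Rpl6, the gene it was copied from, was not (0.35 ± 0.11, adjusted p = 0.0508). Reads may move between that pair, since Rpl6l is annotated as a processed pseudogene.

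On the no-Trp diet the values of the genotypes pointed the other way. Of the 78 members 76 had a negative log2 fold change in Cse-/- against Cse+/- livers, with a median of -0.24 against 0.00 for all genes. The edgeR test called 0 in either direction at an adjusted p under 0.05, against 1.4% of all genes higher and 1.24% lower, and DESeq2 called 0. An unadjusted p under 0.05 was reached by 0 members with higher and 17 with lower values, against 10.2% and 8.16% of all genes. For 16 members all Cse-/- livers lay below all Cse+/- livers and for 0 above them, against 9.51% and 10.1% of all genes. Rpl10a stood at 187, 193 and 182 CPM against 210, 228 and 257 CPM, with a log2 fold change of -0.31 ± 0.11 (adjusted p = 0.147). Rps6 stood at 115, 132 and 119 CPM against 200, 177 and 156 CPM, with a log2 fold change of -0.54 ± 0.21 (adjusted p = 0.178). The erythroid markers had a median of -0.66 in this comparison, with 4 of 5 lying apart with lower values. The lymphocyte markers had a median of -0.52, with 0 of 6 lying apart. Lower values lay apart for 2 of 3 neutrophil (median -1.06), 2 of 4 cholangiocyte (-0.52), 2 of 8 hepatocyte (-0.24), 2 of 6 stellate (-0.16) and 1 of 6 endothelial markers (-0.01). Of 9 macrophage markers 1 lay apart with higher values. The liver av20 also had the highest lymphocyte (16.7 CPM) and macrophage (393 CPM) sums of all livers, and the part of these cells was not tested. The liver av20 was the highest for most members, and without it the median was -0.13. Without av14 the test called 1 member lower, Rpl35a (adjusted p = 0.0488), which is named after its value was seen.

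The genotype difference on the no-Cys diet was then compared with that on the no-Trp diet, as an interaction in the same model. The interaction passed the test for 6 members, all with a larger genotype difference without cysteine, and for 0 in the other direction, against 1.67% and 2.69% of all genes. They included Rpl12 (0.81 ± 0.20, adjusted p = 0.0258, edgeR), Rpl10a (0.70 ± 0.15, adjusted p = 0.0114), Rps26 (0.67 ± 0.17, adjusted p = 0.0283), Rpl18 (0.57 ± 0.15, adjusted p = 0.0366) and Rpl5 (0.55 ± 0.15, adjusted p = 0.0414). The median over the members was 0.51, against -0.02 for all genes, and 76 of 78 were positive. In the same test 2 of 8 hepatocyte and 1 of 5 erythroid markers were lower (erythroid median -1.12) and 1 of 6 endothelial markers was higher, and their part was not tested. At an unadjusted p under 0.05, 61 members were positive and 0 negative, against 9.06% and 10.4% of all genes, and DESeq2 called 31. Rpl12 shows the pattern, with 202, 207 and 255 CPM in the Cse+/- no-Trp livers and 194, 177 and 168 CPM in the Cse-/- no-Trp livers, the reverse order of that on the no-Cys diet. The count was 1 without any one of av02, av06, av07, av16 and av20, 12 without av04 and 45 without av08. Without av06 and av20 together, the highest livers of their groups, it was 0 and the median was 0.32. Without av08 and av20 together it was 25 and the median was 0.49.

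**Figure D4:**
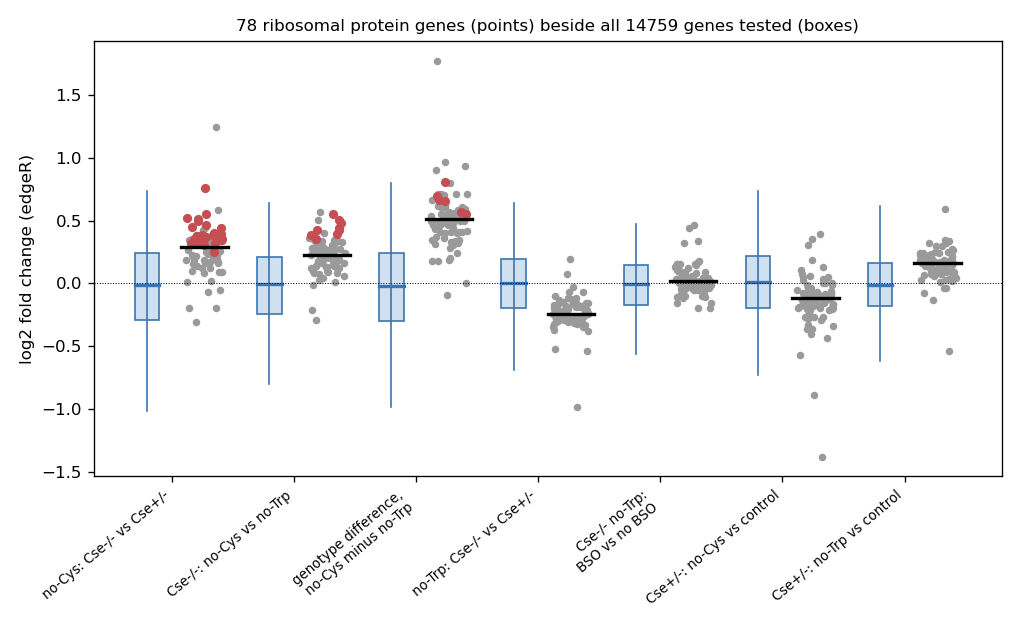
Log2 fold changes (edgeR, y axis) of 78 ribosomal protein genes (points, red where the adjusted p was under 0.05, black line at the median) beside those of all 14759 genes tested (box from the first to the third quartile with the median, line from the 5th to the 95th percentile) in 7 comparisons (x axis). The median of the members was 0.29 for Cse-/- against Cse+/- on the no-Cys diet and -0.24 on the no-Trp diet, and near 0 for BSO.

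BSO added to the no-Trp diet of Cse-/- mice was not followed by a detectable change in the members. The edgeR test called 0 higher and 0 lower, against 0.488% and 0.305% of all genes, DESeq2 called 0, and 0 members had an unadjusted p under 0.05 in either direction, against 6.54% and 6.51% of all genes. The median log2 fold change was 0.02, with single members between -0.20 and 0.46. Rpl3 stood at 230, 228, 209 and 227 CPM with BSO and at 241, 264 and 212 CPM without it, and Rpl10a at 232, 204, 208 and 186 CPM against 187, 193 and 182 CPM, so that the groups overlapped for Rpl3 and for Rpl10a. The livers lay apart for 1 member with higher and 2 with lower values, against 6.47% and 6.13% of all genes.

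In Cse+/- mice, each diet was compared with the control diet, and these comparisons share the same 2 control livers. On the no-Cys diet the edgeR test called 0 members in either direction, against 0.989% of all genes higher and 1.19% lower. DESeq2 called Rps2 higher and Rps4l lower, and an unadjusted p under 0.05 was reached by 3 with higher and 4 with lower values, against 8.43% and 8.21% of all genes. The median was -0.12, and 63 of 78 values were negative. Rps2 stood at 187, 191, 222 and 238 CPM against 159 and 160 CPM (0.40 ± 0.13, adjusted p = 0.105, edgeR), so that all 4 no-Cys livers were above both control livers. Such separation was seen for 5 members with higher and 13 with lower values, against 13.2% and 12.4% of all genes. Rps4l stood at 13.2, 9.31, 11.1 and 16.6 CPM against 21.5 and 25.3 CPM (-0.89 ± 0.24, adjusted p = 0.0517). In the no-Cys livers 5 of 9 macrophage markers (median 0.32) lay apart with higher values and 3 of 8 hepatocyte markers (median -0.31) with lower values. Of 4 cholangiocyte markers 1 was called lower, and the part of these cells was not tested. On the no-Trp diet edgeR and DESeq2 called 0 members in either direction, against 0.00678% of all genes higher and 0.0407% lower, and 3 members with higher and 1 with lower values reached an unadjusted p under 0.05, against 4.42% and 4.87% of all genes. Both control livers lay below all no-Trp livers for 19 members and above them for 1, against 12.8% and 14.6% of all genes. The median was 0.16, with 73 of 78 positive, and was 0.04 without av20. In the no-Trp livers 7 of 9 macrophage markers (median 0.45) and 3 of 3 neutrophil markers (median 1.58) lay apart with higher values and 5 of 8 hepatocyte markers with lower values, and their part was not tested.

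Other genes of the ribosome pathway were followed as lists. Of 23 other TOP mRNAs, among them those of translation factors, hosts of small nucleolar RNAs and the RNA-binding protein Hnrnpa1, 14 rose and 0 fell in Cse-/- against Cse+/- livers on the no-Cys diet, with a median log2 fold change of 0.31. Without av06, 9 rose and the median was 0.24. The 3 largest were Snhg12 (1.17 ± 0.23, adjusted p = 9.91e-04, edgeR), Gas5 (0.93 ± 0.17, adjusted p = 6.58e-04) and Hnrnpa1 (0.71 ± 0.15, adjusted p = 0.0023). Gas5 and Snhg12 are host genes of small nucleolar RNAs whose transcripts carry no long reading frame. Of 34 genes of ribosome assembly and RNA polymerase I, 17 were higher and 0 lower in the Cse-/- livers, with a median of 0.41. They were led by Tsr1 (0.93 ± 0.20, adjusted p = 0.00204), Rrp12 (0.83 ± 0.25, adjusted p = 0.0204) and Ltv1 (0.61 ± 0.13, adjusted p = 0.00249), which take part in the maturation of the small subunit. Over all genes, 11.6% rose and 12.2% fell. Against the control mean, the median log2 difference of the assembly list was -0.36 to -0.22 in the Cse+/- no-Cys livers. In the Cse-/- no-Cys livers it was -0.06 to 0.17, inside the range of the control livers themselves (-0.19 and 0.19). The 17 genes were thus higher than in a reference that was itself low.

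Of 17 genes that control TOP mRNAs or sense amino acids, 4 rose and 1 fell. The translation repressor Eif4ebp1, which mTORC1 inactivates, rose by 0.87 ± 0.12 (adjusted p = 7.23e-05, edgeR), the leucine sensor Sesn2 by 0.77 ± 0.19 (adjusted p = 0.00556) and the S6 kinase gene Rps6kb2 by 0.32 ± 0.10 (adjusted p = 0.0271), whereas Eif2ak4, which encodes the amino acid sensor GCN2, had a log2 fold change of -0.51 ± 0.14 (adjusted p = 0.0125), a call that was lost without av07. Against Cse-/- no-Trp livers edgeR called 1 gene of the list, Eif4ebp1 (0.83 ± 0.14, adjusted p = 8.07e-04), and DESeq2 called 2. In the interaction both tools called 1, which in edgeR was Eif4ebp1 (0.84 ± 0.19, adjusted p = 0.0154). Of 8 ribosomal proteins whose symbols the rule does not take, 0 passed the test on the no-Cys diet in edgeR, with 3 positive and 0 negative values at an unadjusted p under 0.05, 3 called higher and 0 lower by DESeq2, and a median of 0.11. Of these 8, Rps3a1 passed the test in the interaction (0.50 ± 0.13, adjusted p = 0.0299). Of 77 mitochondrial ribosomal proteins, 15 rose and 3 fell with a median of 0.12, and of 1266 genes with merged exons under 1 kb, 56 rose and 92 fell with a median of 0.00. In the other comparisons the median of these short genes was -0.01 for Cse-/- no-Cys against no-Trp livers, -0.08 for Cse-/- against Cse+/- on the no-Trp diet, 0.04 in the interaction, -0.02 for BSO, and -0.08 for Cse+/- no-Cys and 0.03 for Cse+/- no-Trp livers against control.

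In Cse+/- livers on the no-Cys diet, 3 of the 34 assembly genes fell against the control diet in edgeR, against 1.19% of all genes, and DESeq2 called 5 lower. By edgeR, Nop16 fell by 0.53 on the log2 scale, Polr1a fell by 0.54 and Tsr1 fell by 0.98. The list had a median of -0.31. The median depended on the control livers, since it was -0.09 without av22 and -0.50 without av21. Without av22 the log2 fold change was -0.27 for Polr1a and -0.47 for Tsr1, whereas Nop16 hardly moved (-0.51). The count of assembly genes that edgeR called lower was 1 without av02 and 2 without av04. In the same comparison Myc, which drives ribosome synthesis, fell by 2.25 ± 0.49 (adjusted p = 0.0185, edgeR), and its log2 fold change was -2.06 without av22 (adjusted p = 0.244) and -2.26 without av02 (adjusted p = 0.0515). The members themselves had a median of -0.12 in that comparison. These Cse+/- no-Cys livers are also the reference of the first comparison.

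Some members differed between livers in ways that no group accounts for, and these were singled out after their values were seen. Rpl29, a small protein of the large subunit, stood between 0.564 and 0.873 CPM in 5 livers and between 21.3 and 71.0 CPM in the other 15. The 5 low livers were av01 and av02 of the Cse+/- no-Cys group, av05 and av08 of the Cse-/- no-Cys group and av15 of the Cse-/- no-Trp group. The highest library was 126-fold above the lowest, and the next widest range among members with a mean of at least 1 CPM was 5.33-fold in Rpl17, with 13.9 CPM in av06 and between 2.61 and 6.40 CPM in the others. Rpl29 shared 31.3% of its words with 63 other genes. It had the largest log2 fold change of the members on the no-Cys diet with the largest error (1.25 ± 1.06, adjusted p = 0.421, edgeR), and the livers of both groups overlapped. Rps23, a protein of the decoding centre, stood at 139 CPM in av09 and 112 CPM in av07 and between 46.1 and 98.2 CPM in the other libraries.

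**Figure D5:**
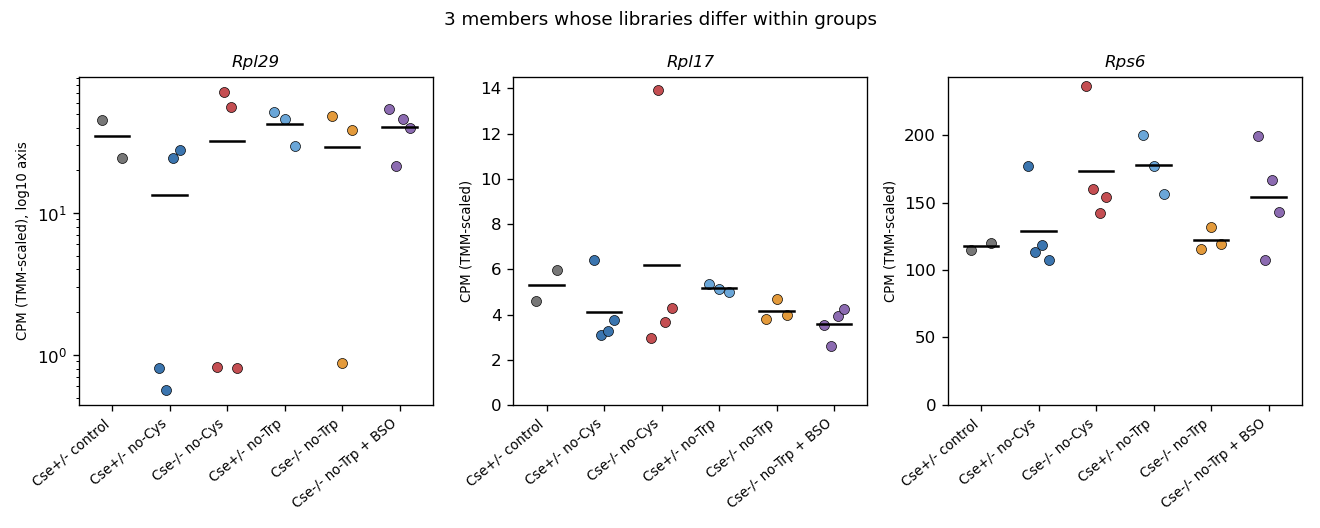
CPM (TMM-scaled, y axes) of Rpl29 (log10 axis), Rpl17 and Rps6 (axes from 0) in each liver (points) of the 6 groups (x axes), with the mean of each group as a line. Rpl29 lies below 1 CPM in 5 livers of 3 groups and above 21 CPM in all others, Rpl17 is high in av06 alone, and Rps6 is spread within the no-Cys and BSO groups.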

How the data were processed

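Poly(A) RNA from 20 livers was sequenced (61 bases from each end). The counts were deposited by the authors as whole reads per Ensembl gene, without normalization, after alignment to GRCm38 with HISAT2 2.1.0 and counting with HTSeq 0.11.0, per the submitters' processing notes. The sources used here do not give the annotation release, and the library kit is not stated to keep strand, so that overlapping genes can share or lose reads. Of 21 columns, 1 was not used because its condition is not listed. Groups follow the study's list of mice, since the columns carry no replicate numbers. The mice are separate animals.

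Symbols were found for 45143 genes, and 935 had none. Genes were filtered with filterByExpr (minimum count 10, minimum total 15), scaled with TMM factors and tested in edgeR 4.0.16 (R 4.3.3, limma 3.58.1) with 1 mean for each of 6 groups. Tests were two-sided, and Benjamini-Hochberg adjustment covered the 14759 genes that passed the filter. Standard errors are the log2 fold change over the square root of F. Alternatives were DESeq2 1.42.0, RLE and upper-quartile factors, TMM factors without the members, other filters, a stricter adjusted p of 0.01, fits restricted to the libraries of the comparison, pseudogene counts added, and leaving out each library. Those that leave out 2 libraries together, and the length of the principal transcript, were added after the data were seen. The edgeR script was tested on simulated data for the first comparison (14453 genes), where it made 3 false calls. A library pair of the same group had a chi-square per gene of at least 9.60 over 25 pairs. Sequences are from RefSeq starts and GENCODE transcripts of GRCm38. Python 3.11.15 was used for tables.

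The members and gene lists were chosen with earlier results of these data known. Members named are, for each comparison, up to 5 called members per direction with the largest change whose groups do not overlap, the 5 highest per kilobase, near copies and their partners, 13 members with known roles, those beside the threshold in the first 2 comparisons, and Cth. From each other list up to 3 called genes per direction are named. The values of 1 member are not reported here, though the counts and medians include it.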

Additional observations from a re-analysis of the deposited data

Results flagged for a closer look

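In groups of 4 livers, 1 liver stood far from the other 3 for 8 of 105 sets of values checked (the named members, Cth and the summed share of the members). Chance flags about 1 in 20 groups. In the Cse+/- no-Cys group these were Rplp1 at 578 CPM and Rplp2 at 220 CPM in av04, above 458 to 473 CPM and 182 to 187 CPM, Rpl12 at 173 CPM in av02, below 187 to 190 CPM, and in av01 Rps6 at 177 CPM, above 107 to 119 CPM, and Cth at 332 CPM, above 121 to 132 CPM. In the Cse-/- no-Cys group Rpl3 was at 225 CPM in av08, below 344 to 363 CPM, and Cth at 13.3 CPM in av08, above 6.37 to 7.04 CPM. In the BSO group Rpl3 was at 209 CPM in av11, below 227 to 230 CPM.

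For members that passed the test, the difference between the genotypes differed between the diets in the interaction test of edgeR. Among them, the log2 values, without cysteine minus without tryptophan, were 0.81 for Rpl12, 0.70 for Rpl10a, 0.67 for Rps26, 0.57 for Rpl18 and 0.55 for Rpl5, with adjusted p-values from 0.0114 to 0.0414.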

How the results depend on the processing

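On the no-Cys diet the count of members higher in Cse-/- livers was 27, and under an adjusted p under 0.01 it was 5, with only both groups fitted 9, without av06 and av20 together 9, without av08 and av20 together 46, and without single libraries 5 to 44. The count lower was 0, and was 1 (Rpl7a) with upper-quartile factors, a mean CPM of at least 1, and without av06 and av20 together, and 0 to 1 without single libraries. For Cse-/- no-Cys against no-Trp livers the count higher was 9, and it was 14 with DESeq2, 5 with no filter, 0 with only both groups fitted, 1 at an adjusted p under 0.01, 2 without av06 and av20, 32 without av08 and av20, and 1 to 29 without single libraries. For the interaction it was 6, and it was 31 with DESeq2, 12 with no filter, 1 with only these groups fitted, 0 at an adjusted p under 0.01, 0 without av06 and av20, 25 without av08 and av20, and 1 to 45 without single libraries. Its median of 0.51 was 0.32 without av06 and av20. For Cse+/- no-Cys against control, DESeq2 called 1 higher and 1 lower, no filter, a mean CPM of at least 1, and leaving out av08 and av20 each called 1 lower, and leaving out single libraries 0 to 1. For Cse-/- against Cse+/- on the no-Trp diet, leaving out single libraries called 0 to 1 lower. The cause of these changes was not tested. In the alternatives run, no named member with a call reversed its direction.

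The median shares of counts of 1.64% (control), 1.56% (Cse+/- no-Cys), 1.80% (Cse+/- no-Trp), 1.67% (Cse-/- no-Trp), 1.76% (BSO) and 2.26% (Cse-/- no-Cys) were 2.02%, 1.90%, 2.15%, 1.98%, 2.06% and 2.59% without the 10 most abundant genes, and 1.71%, 1.64%, 1.88%, 1.75%, 1.83% and 2.36% with pseudogenes. No paired analysis was possible because the columns of the count table carry no replicate numbers. On simulated counts with 4 livers against 4, the test recovered 10.3% of 1.3-fold changes. The simulation had far fewer changed genes than the data, and smaller groups were not simulated. Of the 27 calls on the no-Cys diet, 5 held in every setting run and the other 22 were lost in at least 1 fit without a library.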
